A study of Danio rerio with 6 samples.

Results

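Chromosome 16 of the zebrafish carries prpf31, the gene that was knocked out in these fish, and every gene that the count table places on it is described here in the order of its start. There were 1345 such genes among 36155 listed, with 31290 on the other 24 chromosomes. RNA-seq libraries came from the dissected tails of AB* embryos at 36 hours post fertilization (hpf), 3 libraries from prpf31+/+ siblings and 3 from prpf31-/- mutants, all bred from prpf31+/- parents. The mutant line was made with CRISPR/Cas9 and is predicted to give a truncated Prpf31. Heads were used for genotyping and tails of like genotype were pooled, so that a library is an average over many embryos of 1 mutant line, and over muscle, skin, spinal cord, notochord, vessels and blood. Nothing in the labels ties the libraries to separate clutches, and p-values therefore measure only the spread between these libraries. In such bulk RNA, fewer cells of a type and less RNA per cell cannot be told apart.

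Prpf31 is a protein of the U4 snRNP that holds the U4/U6 and U5 particles together in the tri-snRNP of the spliceosome. Genes on one chromosome are inherited together unless a crossover in meiosis separates them, and the chance of a crossover grows with distance. When embryos are sorted by the genotype of a single locus, the parental copies of its neighbours are sorted with it: prpf31-/- embryos carry the neighbouring alleles of the chromosome on which the mutation sits, and prpf31+/+ embryos those of its wild-type partner. Where these copies differ in sequence, expression can differ too. Zebrafish strains are not fully inbred, so such differences between homologous chromosomes are common. Whether inherited copies cause any of the differences below was not tested, since no genotype other than that of prpf31 is known for these pools.

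The embryos were sorted with a single primer pair, which reads the locus on which all the rest is centred. Both primers, taken from the primer list of the study, are shown in lower case from 5′ to 3′.
prpf31 genotyping, forward: aagaggacgggctgtat
prpf31 genotyping, reverse: tcttgcgttgatttcca
Each primer is 17 bases long, and their positions were not looked up here, as no genome sequence was used. All positions below are those of the deposited files, in GRCz11. On this build prpf31 lies on the plus strand of chromosome 16 from 32082359 to 32090672, and the listed genes reach 55259199. Distances are counted from the start of prpf31 to the start of the other gene, "left" being toward lower coordinates.

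prpf31 itself was lower in the mutants in every library. Counts were 844, 850 and 854 in siblings and 475, 576 and 535 in mutants. On the scale of CPM, counts scaled to a common normalized library total, this was 37.8 ± 0.851 (SD, n = 3) against 23.9 ± 1.21 (SD, n = 3). The fitted log2 difference was −0.66 (SE 0.0842, adjusted p = 0.00104 in edgeR's quasi-likelihood test). The libraries held 21809870 to 23789933 counts. Mitochondrial transcripts took 4.19 to 4.35% of counts in siblings and 4.78 to 5.62% in mutants. The 12 genes chosen as markers of head, eye and brain each had counts. They summed to 44.8 to 50.1 CPM in siblings and 38.8 to 48.3 in mutants, and 1 of 10 tested was lower. Whether their counts came from head tissue was not tested. Blood markers summed to 1502 to 1808 CPM in siblings and 965 to 1149 in mutants, with 2 of 3 tested markers lower. The part of blood content in the chromosome 16 differences was not tested.

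Of the 1345 genes of chromosome 16, 891 passed the filter on low counts and were tested, and 454 were not, 168 of them with 0 counts in all 6 libraries. Among the tested genes, 82 were higher and 128 lower in the mutants at the adjusted p threshold of 0.05, which is 23.6% of them; genes past this threshold are referred to as called. By direction, 9.2% were higher and 14.4% lower. Over all genes tested, 10.1% were called, 5.58% higher and 4.49% lower. Over the other 24 chromosomes it was 9.77% (987 higher, 5.46%, and 779 lower, 4.31%, of 18084). No other chromosome reached the level of chromosome 16, their shares running from 7.17% to 11.3%. In 403 genes of chromosome 16 (45.2%) the 3 mutant libraries did not overlap with the 3 siblings, against 31% on the other chromosomes and 30.6% of all genes. The median absolute log2 fold change was 0.29 on chromosome 16 and 0.21 elsewhere, with single chromosomes between 0.20 and 0.25. These shares are descriptions, as genes are not replicates.

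**Figure D1:**
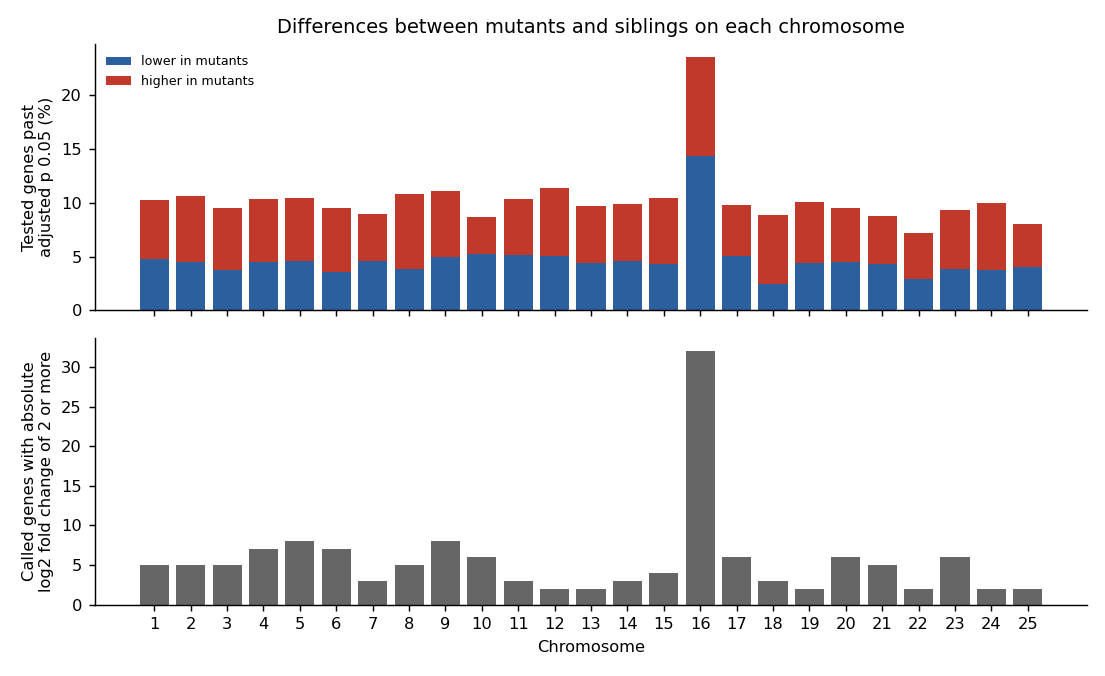
Share of tested genes called on each chromosome (upper panel, percent, split by direction) and number of called genes with an absolute log2 fold change of 2 or more (lower panel), 3 prpf31-/- against 3 sibling libraries. Chromosome 16 stands at 23.6% and 32 genes, and no other chromosome is above 11.3% or 8 genes.

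The excess was greater for large differences, and among these it lay mainly on the side of lower expression. Called genes whose log2 fold change was 1 or more in either direction made up 8.31% of tested genes on chromosome 16, 2.42% on the other chromosomes and 2.8% over all. For 2 or more the shares were 3.59% (32 genes), 0.592% and 0.786%, the other chromosomes having 2 to 8 such genes each. Of the 32 genes, 26 were lower and 6 higher, whereas on the other chromosomes 11 were lower and 96 higher. With the counts of alternate-contig rows added, as described further down, 17 were lower and 6 higher on chromosome 16, and outside the spans of such contigs 13 were lower and 4 higher. Ranked over the whole table by absolute log2 fold change, among called genes without overlap and with a mean of at least 1 CPM, chromosome 16 held 4 of the first 10, 14 of the first 50 and 37 of the first 200. The most on any other chromosome was 2, 5 and 20. The mutant mean was under 10% of the sibling mean in 11 called genes of chromosome 16 and in 2 called genes of all other chromosomes together. In the opposite direction, with siblings under 10% of mutants, there were 2 genes on chromosome 16 and 31 elsewhere. The ranking and these counts use the chromosome rows alone. Of the 11 genes, ceacam1 (1.67%) and usp5 (7.56%) were called higher with contig counts added. pafah1b3 and si:dkey-199f5.6, also among the 11, lie within contig spans.

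The share of all counts that came from chromosome 16 was 4.37, 4.47 and 4.50% in siblings and 4.28, 4.19 and 4.12% in mutants. All mutant libraries were thus below all sibling libraries, with means of 4.45 ± 0.0694% and 4.195 ± 0.0789% (SD, n = 3 each). The difference was −0.255 percentage points, with an exact two-sided permutation p of 0.1, the smallest that 3 against 3 libraries allow. Without the 10 most abundant genes of the chromosome the difference was −0.106.

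**Figure D2:**
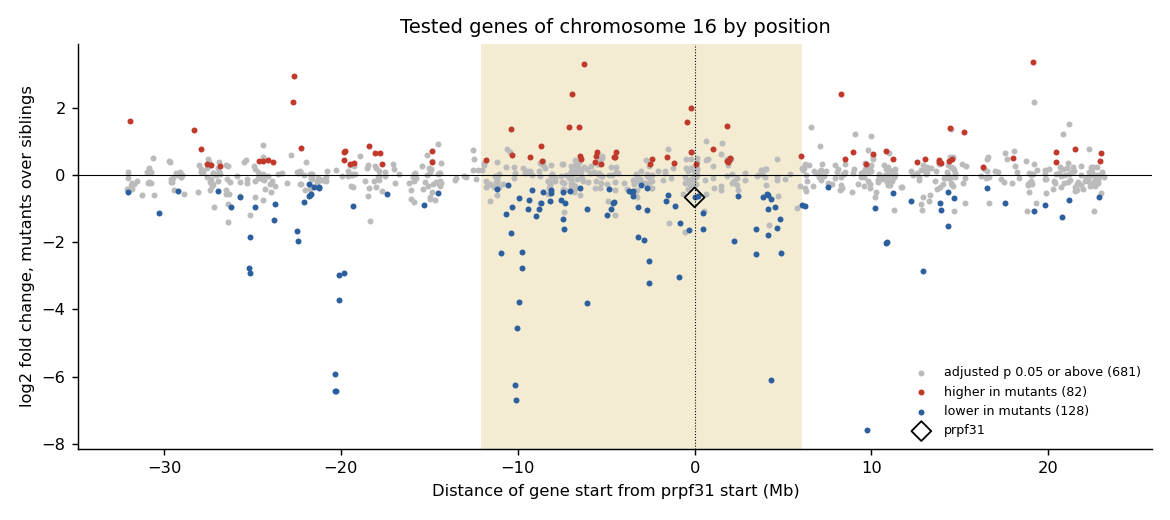
Log2 fold change of every tested gene of chromosome 16 (mutants over siblings) against its distance from prpf31 in Mb, with 82 higher genes in red, 128 lower genes in blue and the remaining genes in grey. The shaded stretch runs from 12 Mb left to 6 Mb right of prpf31, and lower genes with changes beyond −6 are found near 20 and 10 Mb left and within 10 Mb right.

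Called genes lay along most of the chromosome. The following bands take both sides of prpf31 together. Within 1 Mb of prpf31, 11 of 49 tested genes were called (22.4%), prpf31 among them. From 1 to 2 Mb the share was 35.7%, and from 2 to 5 Mb it was 37.3%, with 6 genes higher and 32 lower. It was 23.1% from 5 to 10 Mb, 22.3% from 10 to 15 Mb, 18.1% from 15 to 20 Mb, 22.4% from 20 to 25 Mb and 17.0% beyond 25 Mb. Every one of these bands was above the 9.77% of the other chromosomes. To the left of prpf31, 26.5% of 517 tested genes were called, and to the right 19.3% of 373.

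In windows of 2 Mb counted outward, joined to the next where fewer than 20 genes were tested, 15 of 24 windows exceeded 20%, the 95th percentile of 463 windows of the other chromosomes. 22 of the 24 exceeded their median of 9.52%, and 5 exceeded their highest window, 31.8%. An unbroken run of windows above 20% reached from prpf31 to 12 Mb on the left and to 6 Mb on the right. This stretch held 340 tested genes, 33 higher and 74 lower (31.5%), and the rest of the chromosome 551, 49 higher and 54 lower (18.7%). As the stretch was defined by its share of called genes, a higher share inside it follows from the rule. On the left the run ended with a window of 8.89%, from 12 to 16 Mb, the run itself having peaked at 42.5% from 8 to 10 Mb, and windows from 16 to 26 Mb were again at 25% to 41.4%. On the right, windows from 6 to 12 Mb were at 12.8 to 17.1%, those from 12 to 16 Mb at 28.1% and 21.9%, and the outermost at 8.82%.

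These ends moved with the settings, so the position where the excess stops is not fixed by these data. Over 21 alternatives the left end lay between 0 and 30 Mb and was 12 Mb in 13 of them. The right end lay between 0 and 6 Mb and was 6 Mb in 16 of the 21. With 1 Mb windows the left end was at 0 and the right at 5 Mb, and with 5 Mb windows they were at 30 and 5 Mb. Without sibling replicate 2 the left end was at 2 Mb and the right at 0, without sibling replicate 1 the right end was at 2 Mb, and without sibling replicate 3 or mutant replicate 2 the left end was at 6 Mb. The number of called genes was 41 higher and 72 lower without sibling replicate 1 (12.4%), 43 and 72 without sibling replicate 2 (12.7%), and 31 and 61 without mutant replicate 3 (10.1%, against 3.91% on the other chromosomes). 85 genes were lower without sibling replicate 3. Over 18 alternative fits the share on chromosome 16 was 2.07 to 3.44 times that on the other chromosomes.

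**Figure D3:**
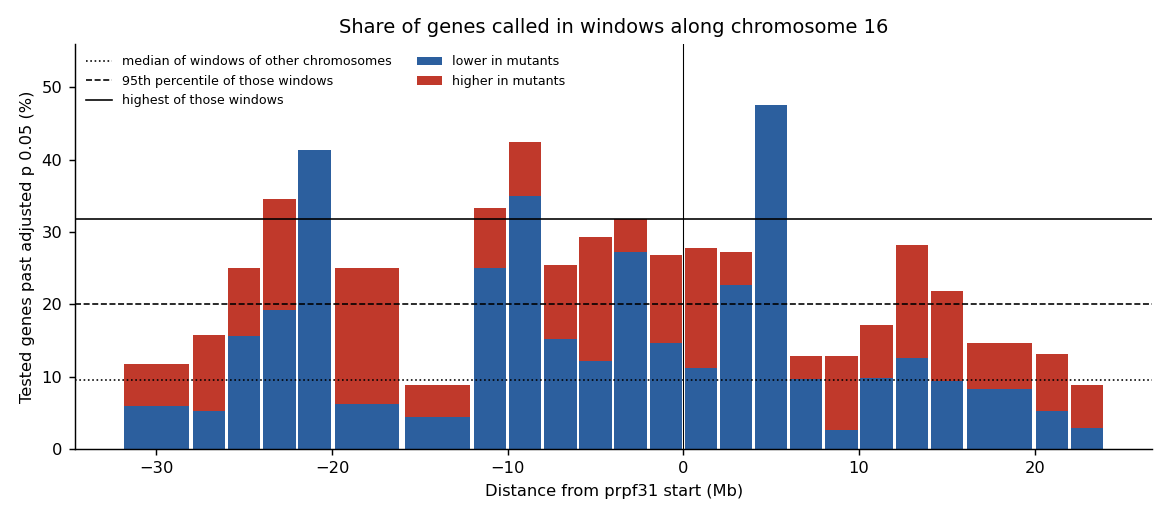
Percent of tested genes called in windows along chromosome 16, left and right of prpf31, split into lower (blue) and higher (red) genes, each bar holding at least 20 tested genes. The lines give the median (9.52%), the 95th percentile (20%) and the highest value (31.8%) of windows of the other chromosomes, and the bars at 4 to 6 Mb right and 20 to 22 Mb left hold lower genes alone.

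The genes next to prpf31 did not pass the threshold. Leftward these were si:dkey-40m6.8, leng1 and tmc4, a transmembrane channel-like protein. Rightward they were cnot3a, a subunit of the CCR4-NOT deadenylase, sphk2, a sphingosine kinase, and gprc6a, a receptor for amino acids. Their log2 fold changes ran from −0.29 (si:dkey-40m6.8, 646, 464 and 441 counts against 351, 456 and 444) to 0.12 (sphk2). The groups overlapped in each of the 6 genes, the smallest adjusted p was 0.240 in edgeR, 0 had an unadjusted p under 0.05, and DESeq2 called 0. Of tested genes, 22.4% were called within 1 Mb of prpf31 and 10.1% over the whole table, so 0 of 6 cannot be told apart from these shares. tmc4 (26, 28 and 22 counts against 29, 26 and 19) and gprc6a (18, 18 and 17 against 12, 26 and 12) also had few counts.

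The nearest called genes lay farther out and went in both directions. kpna5, an importin alpha of nuclear import, was higher 0.0851 Mb to the right, with 1928, 1858 and 1830 counts in siblings and 2218, 2250 and 2544 in mutants (log2 fold change 0.34, SE 0.0723, adjusted p = 0.0162, edgeR). Next on that side were mms22l, which acts in repair of stalled replication forks, at −0.61, and the neural POU factor pou3f2b at −1.62 (329, 471 and 263 counts against 128, 94 and 117). On the left, 3 genes were higher and 3 lower within 1 Mb. The nearest was rbfox1l, higher on the chromosome 0.182 Mb away (0.70, adjusted p = 0.00392, edgeR) but with a contig row that went the other way, both described further down. chd4b, a chromatin remodeller of the NuRD complex, was lower 0.321 Mb away. It had 2677, 2643 and 2235 counts in siblings and 632, 893 and 875 in mutants, with no overlap (log2 fold change −1.64, SE 0.106, adjusted p = 8.74e-06, edgeR). scrt1b, a zinc finger repressor of the Scratch family, fell from 87, 83 and 57 counts to 4, 7 and 16, 0.896 Mb to the left (−3.04). With contig counts added, as described further down, scrt1b was at −1.20 and chd4b at −1.31, both still called lower. These called genes within 1 Mb were picked for their position after their values were seen.

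A run of lower genes lay from 2 to 6 Mb to the right, where 15 of 43 tested genes were lower and 1, tcea3, was higher. With contig counts added, 12 of the 43 were lower and 1 higher. Over all tested genes, 4.49% were lower and 5.58% higher, and on chromosome 16 14.4% were lower and 9.2% higher. The run was picked after its values were seen. From 4 to 6 Mb, 10 of 21 tested genes were lower and 0 higher in edgeR (2 higher at an unadjusted p under 0.05, 0 in DESeq2), and the median log2 fold change over all 21 was −0.64. With contig counts added, 7 of the 21 were lower and 0 higher, with a median of −0.36. cited4b, a partner of the CBP/p300 coactivators, had 711, 671 and 552 counts in siblings and 210, 191 and 226 in mutants (−1.60). scmh1, a Polycomb group protein, had 225, 217 and 184 counts against 43, 45 and 33 (−2.34). The groups did not overlap in either gene. With contig counts added, scmh1 was at −0.63 and still called lower. An assembled transcript without an Ensembl identifier, 4.32 Mb to the right, had 278, 261 and 249 counts in siblings and 7, 0 and 4 in mutants (−6.09, SE 0.438, adjusted p = 2.04e-05, edgeR). col6a4a, a collagen VI chain, was lower by less, with 2190, 2173 and 2298 counts against 856, 1459 and 1125 (−0.94).

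A similar run lay far from prpf31, 20 to 22 Mb to its left, with 12 of 29 tested genes lower and 0 higher in edgeR (1 higher at an unadjusted p under 0.05, 0 in DESeq2). This run too was picked after its values were seen, and over all tested genes 4.49% were lower and 5.58% higher. With contig counts added, 9 genes of the run were lower and 2, ceacam1 and usp5, higher of 30. Among the lower ones in the counts of the chromosome alone were pafah1b3, a catalytic subunit of the platelet-activating factor acetylhydrolase, and ceacam1, a cell adhesion molecule of the immunoglobulin family. pafah1b3 had 193, 298 and 232 counts in siblings and 3, 3 and 2 in mutants (log2 fold change −6.41, SE 0.324, adjusted p = 1.35e-06, edgeR), the mutant mean being 1.13% of the sibling mean. It lies within the span of a contig, as does ceacam1. ceacam1 had 473, 454 and 443 counts against 11, 7 and 4 (−5.91). The chemokine receptor gene cxcr3.3 had 35, 48 and 36 counts against 0, 0 and 1 (−6.43, SE 0.653). Also within this run were usp5, which takes apart free ubiquitin chains, at −3.72, and p3h3, a prolyl hydroxylase of collagen, at −2.98. Smaller differences stood beside them, such as tubb5, a beta tubulin, at −0.60 and flot1b, a flotillin, at −0.26. The pafah1b3 row given here overlaps another row of the same name, whose values are not shown, so it may not hold all reads of that gene. It also overlaps a gene on the opposite strand, and the library kit did not keep the strand, so reads of such partners cannot be told apart. This applies to 33 of the 210 called genes.

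Around 10 Mb to the left the mutants were again close to 0 in several neighbouring genes. si:dkey-71b5.7 had 244, 213 and 187 counts in siblings and 3, 0 and 5 in mutants (−6.24, SE 0.429, adjusted p = 1.46e-05, edgeR). Next to it the long noncoding RNA CR855277.2 had 13, 12 and 14 counts against 0, 0 and 0, at least 12.8-fold lower with a floor of 3 counts over the mutant group. si:dkey-199f5.6, 9.74 Mb on the other side, had 31, 13 and 29 counts against 0, 0 and 0, at least 24-fold lower. It lies within the span of a contig with no row matched to it. These 2 were the genes of chromosome 16 with no count in one whole group and at least 10 in each library of the other, and all the other chromosomes together had 1 such gene, which was absent from siblings. si:dkey-71b5.3 beside them was at −4.54.

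**Figure D4:**
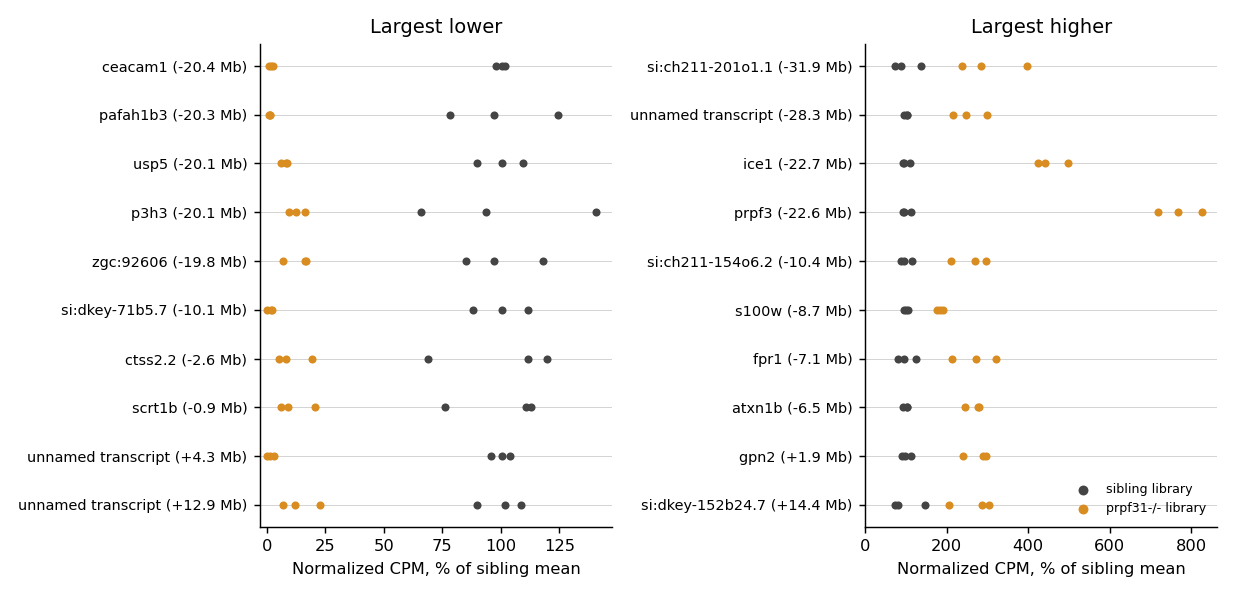
Normalized CPM of each library as percent of the sibling mean for the 10 genes with the largest decreases (left) and increases (right) on chromosome 16, with at least 1 CPM on average, ordered by position. Values are of the chromosome rows alone. With alternate-contig counts added, as described further down, ceacam1 (0.27) and usp5 (0.26) were called higher. p3h3 (−0.36) and si:ch211-154o6.2 (−0.089) were then not called, and a contig row over zgc:92606 went the other way. scrt1b was at −1.20 with contig counts added and still called lower. Grey points are sibling libraries and orange points prpf31-/- libraries, and the groups are apart in every gene shown.

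The largest increases were spread over the chromosome. prpf3, which encodes another protein of the U4/U6 particle, had 229, 218 and 261 counts in siblings and 1533, 1842 and 2024 in mutants, 22.6 Mb to the left (log2 fold change 2.95, SE 0.103, adjusted p = 2.16e-07, edgeR). Its neighbour ice1, a subunit of the little elongation complex that acts at snRNA genes, had 81, 77 and 91 counts against 318, 419 and 379 (2.18). Both genes had mutant libraries several times above the highest sibling. atxn1b, related to ataxin 1, was at 1.42 with 297, 288 and 261 counts against 622, 793 and 818, and gpn2, a GTPase in the assembly of RNA polymerases, at 1.46 with 337, 405 and 350 against 952, 885 and 1124. fpr1, a formyl peptide receptor of phagocytes, had 55, 41 and 35 counts against 107, 142 and 96 (1.42). Others with few counts were si:ch211-201o1.1 (1.61), si:dkey-152b24.7 (1.40) and si:ch211-154o6.2 (1.37).

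Called neighbours shared a direction more often than not, but some went opposite ways. Among 67 pairs of adjacent tested genes that were both called on the chromosome rows alone, 44 shared a direction and 23 did not. Several of the 23 include genes not called once contig counts were added, such as si:ch211-154o6.2 (−0.089) and cops7a (−0.28). The pairs were not counted again in that setting. No such count was made on the other chromosomes, so whether this share is particular to chromosome 16 is not known. Called genes here were lower more often than higher, which by itself raises the number of pairs that share a direction. The immunity-related GTPase irge4 was higher in mutants, with 5, 2 and 4 counts against 32, 37 and 42 (3.31, SE 0.406), next to prss59.1, a trypsin-like protease, at 13, 15 and 19 against 0, 3 and 0 (−3.80). prss59.1 belongs to a family of close copies, and its counts are uncertain for that reason. psmc4 (0.33) lay beside si:dkey-199f5.6, which had 31, 13 and 29 counts against 0, 0 and 0. With contig counts added, psmc4 was at 0.15 and not called. serpinb14, 19.2 Mb to the right, had 725, 592 and 727 counts against 290, 373 and 304 (−1.06). It lay beside an assembled transcript with few counts, 0, 0 and 4 against 11, 16 and 17 (3.35). The calcium channel gene trpv6 (0.72) and leng8 (0.45) were higher on both sides of zgc:92606, which had 623, 735 and 531 counts against 92, 45 and 110 (−2.91). With contig counts added, trpv6 was at 0.28 and not called, and leng8 at 0.60 and still called. A contig row over zgc:92606 had 93, 82 and 153 counts against 540, 538 and 524, and the sums were 716, 817 and 684 against 632, 583 and 634. That row overlapped leng8 for longer and was added to leng8 in the alternative described further down. Differences were also called near the ends of the chromosome. sox4b, a SoxC transcription factor 32.0 Mb to the left, had 1017, 854 and 725 counts against 502, 625 and 678 (−0.51, adjusted p = 0.0275, edgeR). Its call was lost in 10 of 18 alternatives, 5 of them leaving out 1 library, with values of −0.56 to −0.39. LO017815.1, 23.0 Mb to the right, had 218, 241 and 246 against 295, 409 and 409 (0.67).

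Spliceosome and mRNA processing genes on chromosome 16 were called in both directions, 3 higher and 3 lower of 8 tested, while on the other chromosomes 66 were higher and 14 lower of 186 (43.0% called). The higher ones were prpf3, u2af2a, a subunit of the U2 auxiliary factor (78.0 ± 3.58 against 100.3 ± 2.47 CPM, SD, n = 3), and rbm8a of the exon junction complex (143.3 ± 2.97 against 196.9 ± 20.1 CPM). The lower ones were prpf31, snrnp48, a protein of the minor U11/U12 spliceosome (82, 77 and 55 counts against 9, 15 and 18, −2.33), and smg9. With contig counts added, as described further down, snrnp48 was at 0.20 and not called. smg9, which regulates the SMG1 kinase of nonsense-mediated decay, had 529, 493 and 494 counts against 189, 144 and 159 (−1.59, SE 0.150, adjusted p = 0.000154, edgeR). clk2b, a kinase of SR proteins (log2 fold change 0.24), and smg5 (−0.18) did not pass.

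Gene clusters of chromosome 16 let near neighbours with like functions be compared. Of 5 tested S100 genes, which encode small calcium-binding proteins, s100w and icn were higher and s100t and s100a10b lower, within 1 Mb of each other, whereas 0 of 7 on other chromosomes were called by edgeR (3 had an unadjusted p under 0.05, and DESeq2 called 0). s100w had 544, 549 and 585 counts against 963, 1000 and 1064 (0.87, adjusted p = 0.000169, edgeR). Its direct neighbour s100a10b had 8906, 9954 and 10368 against 6051, 4903 and 5133 (−0.83, adjusted p = 0.00328). s100v1, which lies apart from them at 3.33 Mb, did not pass at 0.05. icn lost its call in 8 of 18 alternatives, s100w and s100a10b in 1 each, and s100t in 0. One of the 18 set a log2 fold change minimum of 1. A gene under 1 loses its call there by rule, here and in the other such tallies.

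The apolipoprotein cluster 8.10 to 8.17 Mb to the left held 7 tested genes, 3 lower and 0 higher, beside 3 lower of 14 elsewhere. apoa4b.1 had 17817, 17420 and 19309 counts in siblings and 11006, 10122 and 10426 in mutants (−0.76, adjusted p = 0.000994, edgeR), and apoa4b.2 and apoa2 were at −0.53 and −0.44. apoeb, between them, was at −0.028, apoc1 at −0.20, apoa4b.3 at −0.30 and apoc2 at 0.29, and none of these 4 passed in edgeR. Of the cathepsin genes, ctss2.1 and ctss2.2, both cathepsin S genes and possibly sharing reads, were lower at −2.56 and −3.22. ctsk next to them was at 44.8 against 43.0 CPM (−0.060, adjusted p = 0.786, edgeR), and on the other chromosomes 3 cathepsin genes were higher and 0 lower of 13. Of the 5 tested genes of the hoxa cluster, 11.2 Mb to the left, hoxa9b was lower (47.6 against 35.3 CPM, −0.43, adjusted p = 0.0327, edgeR) and hoxa13b, hoxa10b, hoxa2b and hoxa11b did not pass, with log2 fold changes of −0.59 to −0.074, beside 2 higher and 4 lower of 43 hox genes elsewhere.

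The remaining lists had few members on this chromosome. None of 5 cytosolic ribosomal proteins, 5 mitochondrial ribosomal proteins, 4 respiratory chain genes and 3 histone modifiers was called by edgeR. On the other chromosomes, 2.53, 17.2, 5.88 and 14.8% of the tested genes of these lists were called. At an unadjusted p under 0.05 there were 0, 3, 1 and 0, and DESeq2 called 1 mitochondrial ribosomal protein gene and 0 of the others. Neither was any of 1 kinesin, 1 chaperone and 2 keratin or claudin genes called by edgeR or DESeq2, with an unadjusted p under 0.05 in 1 of the last. Elsewhere the shares called in these lists were 9.09, 41.7 and 9.09%, the list with 41.7% holding both proteasome and chaperone genes. With so few members, 0 called cannot be told apart from such shares. rps9, 0.161 Mb from prpf31, was at 1132 against 1050 CPM (−0.11, adjusted p = 0.575, edgeR). Both tested collagens were lower, col6a4a and col14a1a (1439, 1539 and 2093 counts against 962, 1283 and 1171, −0.55), where 1 of 49 was called on other chromosomes. col14a1a lost its call in 9 of 18 alternatives, and col6a4a in 1. Of 10 ubiquitin proteases and ligases, ube2s, the chain-elongating enzyme of the anaphase-promoting complex (0.87), and trim35-28 (0.39) were higher and usp5 lower, beside 10 higher and 2 lower of 116 elsewhere. With contig counts added, as described further down, usp5 was called higher (0.26). ube2s lies within a contig span. A contig row that overlaps it had 735, 717 and 740 counts in siblings against 834, 725 and 852 in mutants. That row was added to another gene, so whether the ube2s values cover the gene's whole output was not tested. Cell cycle genes were higher in 3 of 4, ccne2 (0.49), rpa2 (0.29) and rad21a (0.25), against 7 higher and 10 lower of 110 on the other chromosomes. rpa2 and rad21a each lost their call in 12 of 18 alternatives. Nucleolar genes were higher in 2 of 4, fbl (0.63) and nop2 (0.39), against 16 higher and 0 lower of 70. Among zinc finger genes 1 of 9 was called, znf1035 (−0.48), beside 7.02% elsewhere, and among solute carriers slc50a1, a sugar transporter, was lower (−1.02) and slc45a4 higher (0.35) of 8, beside 7.10% elsewhere. slc45a4 lost its call in 11 of 18 alternatives. Both tested apoptosis genes were called, the anti-apoptotic mcl1b higher (0.34) and casp2 lower (−0.52), beside 10 higher and 2 lower of 34 elsewhere (35.3%). Of 5 TNF receptor and immune genes, cxcr3.3 and il6r (−0.68) were lower, beside 9.88% of 81 called elsewhere. il6r, mcl1b and trim35-28 each lost their call in 6 of 18 alternatives, and casp2 in 5. Of 2 muscle genes tmod4, which caps thin filaments, was higher (0.48), beside 13.2% of 68, and of 3 proteasome subunits psmc4 was higher (0.33), beside 11.4% of 44. psmc4 lost its call in 9 of 18 alternatives, including that with contig counts added (0.15). The blood cell list had 4 tested genes here, with ctss2.1 lower and tmod4, which it shares with muscle, higher, beside 0 higher and 8 lower of 34 elsewhere.

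The reference also lists alternate-locus contigs, second versions of parts of a chromosome, and the count table has rows on them that are separate from the chromosome's own genes. A gene present in both versions can have its reads divided between 2 rows. For chromosome 16 there were 24 such contigs with 105 rows. Of 96 tested rows, 15 were higher and 12 lower in mutants (28.1%), against 7.21% of 2400 tested rows on contigs of the other chromosomes. Genes of chromosome 16 within the listed span of a contig were called in 38 of 87 cases (43.7%), and genes outside in 172 of 804 (21.4%). On the other chromosomes genes inside such spans were called in 6.72% and those outside in 10.1%.

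In 17 of 21 pairs of a called contig row and a called gene of chromosome 16 at the same listed positions, the directions were opposite. Some rows and genes recur among these pairs, such as the genes tpi1b, leng8 and rhbdl2, so the pairs are not separate cases. No such count was made on the other chromosomes. usp5 had 362, 394 and 429 counts in siblings and 29, 34 and 25 in mutants, while the contig row over it had 1968, 1671 and 1667 against 2340, 2648 and 2551. rbfox1l, a muscle splicing regulator 0.182 Mb from prpf31, was higher on the chromosome with 5727, 6407 and 5441 counts against 9982, 8411 and 9607 (0.70), and its contig row had 2384, 2840 and 2204 against 98, 81 and 94 (−4.74). In both genes the row that was nearly empty in mutants was the smaller one in siblings. snrnp48 had 68, 68 and 76 contig counts in siblings and 152, 127 and 161 in mutants, opposite to its row on the chromosome.

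**Figure D5:**
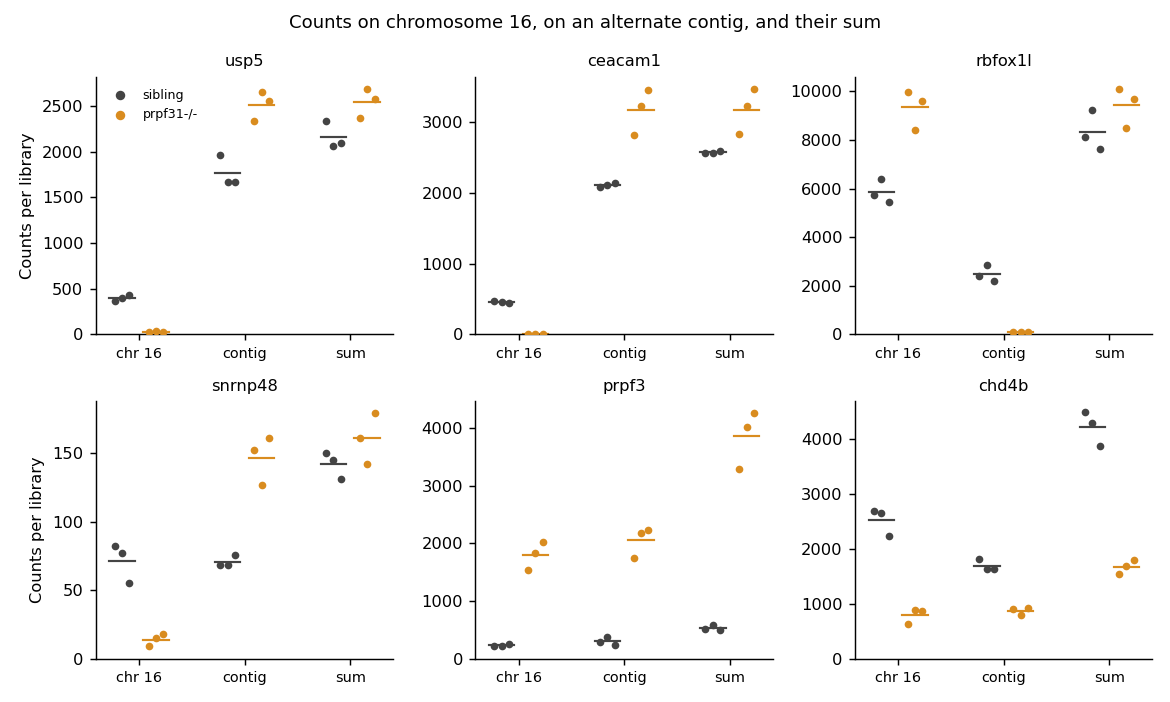
Counts per library on the chromosome 16 row, on 1 alternate-contig row at the same listed positions, and their sum, for 6 genes; grey points are siblings, orange points mutants, and bars are means of 3 libraries. In usp5, ceacam1, rbfox1l and snrnp48 both rows went opposite ways, and in prpf3 and chd4b they went the same way.

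When the contig counts were added to the gene with the longest overlap, an alternative chosen after seeing the data, many of these differences became small. 75 genes of chromosome 16 took counts, 29 of which had been called alone. Of these, 8 were still called in the same direction, 18 were no longer called, and 3 (ceacam1, usp5 and si:dkey-92i15.4) were called in the other direction. Their median absolute log2 fold change went from 1.43 to 0.28. usp5 was then at 0.26 (adjusted p = 0.0412, edgeR), ceacam1 at 0.27 (0.0255), rbfox1l at 0.21 (0.280), snrnp48 at 0.20 (0.459) and p3h3 at −0.36 (0.160). pafah1b3 and si:dkey-199f5.6 lie within contig spans with no contig row matched to them, so whether their values cover the gene's whole output was not tested. The same holds for ube2s, as the contig row that overlaps it was added to another gene. The values given above for these genes, and those for zgc:92606, trpv6, psmc4, si:ch211-154o6.2, scrt1b, scmh1 and chd4b, are therefore differences of a row of the table and not of the gene's whole output.

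Other differences kept their direction with the contig counts added. prpf3 summed to 517, 592 and 499 counts in siblings and 3285, 4019 and 4257 in mutants (2.86), and ice1 was at 2.99. chd4b summed to 4483, 4278 and 3864 against 1532, 1692 and 1793 (−1.31), and scrt1b, mroh1 and scmh1 were at −1.20, −0.54 and −0.63. pnrc2 and josd2, not called alone, were called at −0.91 and 0.68. Over the whole chromosome the sums left 85 genes higher and 119 lower (22.6%, against 11% on the other chromosomes and 11.4% of all genes), with the same ends of the stretch. Genes outside all contig spans, which have no second row on them, were called in 29.3% within the stretch and 16.6% beyond it. The called genes themselves set the ends of the stretch, so this contrast is no separate test of it. The match of contig to chromosome rests on listed positions alone, which may be offset.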

How the data were processed

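The authors deposited, for each of the 6 libraries, counts per gene and FPKM per gene. Per the submitters' processing notes, CASAVA 1.8, HISAT2 2.0.5, featureCounts 1.5.0-p3 and GRCz11 were used, and the annotation release is not given in the sources used here. The deposited FPKM values are those counts divided by gene length and a library total. The members, gene lists and tests were chosen with earlier results of these data known.

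Tests on the counts used edgeR 4.0.16 under R 4.3.3 (filterByExpr, TMM, quasi-likelihood test of mutants against siblings, all 36155 genes, 21876 tested, Benjamini-Hochberg threshold 0.05). The biological coefficient of variation was 15.5%. On data simulated for this comparison with 21876 genes, 200 of them changed, 82% of genes with a log2 change of 1 were found and 96% of those with a change of 2. There, 10 of 188 calls were false. Every simulated gene had the same biological variation, so these rates need not hold for the real libraries. Windows and ends of the stretch followed the rule given in the text. Named genes were prpf31, its 3 nearest tested genes on each side, the 10 largest changes per direction without overlap and with a mean of at least 1 CPM, genes at 0 in one group, up to 4 members of each of 24 lists, the farthest called genes and the 5 strongest pairs of opposite neighbours. Genes named beyond this rule were chosen after their values were seen.

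Alternatives were DESeq2 1.42.0, upper-quartile and RLE factors, TMM without chromosome 16, other filters, a fold change minimum, the replicate number as a block, limma 3.58.1 on log2(FPKM + 1) and log2(FPKM + 0.1), other windows and limits, and leaving out each library. Adding contig counts, and leaving out genes within contig spans, were chosen after seeing the data. Figures were drawn with matplotlib 3.10.9.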

Additional observations from a re-analysis of the deposited data

How the results depend on the processing

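In every alternative fit the share of called genes on chromosome 16 was above that of the other chromosomes, 2.07 to 3.44 times. No called gene changed sign in any alternative other than the one that added contig counts. There, 8 of the 210 called genes did, and among named genes ceacam1 went to 0.27, usp5 to 0.26, snrnp48 to 0.20 and si:ch211-154o6.2 to −0.089. In that setting 189 of the 210 were still called. With a log2 fold change minimum of 1 there were 16 genes higher and 58 lower (8.31%), the left end was at 4 Mb, and prpf31, at −0.66, was no longer called. Every gene under 1 loses its call there by rule, which is 1 of the losses in each tally of such a gene. limma on log2(FPKM + 0.1) gave 48 genes higher, and limma on log2(FPKM + 1) without a filter gave 13.8%, a median absolute log2 fold change of 0.16 and a left end at 0. Windows of 1 Mb put the ends at 0 and 5 Mb, windows of 5 Mb at 30 and 5 Mb, and the highest window of the other chromosomes as the limit at 0 and 0.

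Leaving out each library gave 31 to 75 genes higher, 61 to 123 lower, 10.1 to 21.7% called, a left end of 2 to 12 Mb and a right end of 0 to 6 Mb. The fewest of the 210 genes, 92, were still called without mutant replicate 3. DESeq2 called 90 higher and 133 lower (25%) with the same ends. With the replicate number as a block, 43 genes were higher and 74 lower (13.1%, against 4.93% on the other chromosomes). Libraries that share a number did not deviate together (correlations of −0.0735, −0.121 and −0.0414). With 3 libraries per group and labels that are silent on it, this cannot settle whether a number stands for a shared clutch or batch. The causes of these shifts were not tested. At this depth genes with few counts could rarely be tested, and the largest total of an untested gene was 65 counts over the 6 libraries.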

Other observations

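Assembled transcripts without an Ensembl identifier made up 82 of the genes listed on chromosome 16. Of 69 tested, 7 were higher and 11 lower in mutants (26.1%), against 11.2% of 929 such transcripts on the other chromosomes. Protein-coding genes of chromosome 16 gave 74 higher and 112 lower of 798 (23.3%), against 9.57% of 16649 elsewhere.

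Chromosome 16 also held 2 tested rows named afp4, 13.8 Mb to the right, of which 1 was called. It had 17683, 19276 and 21636 counts in siblings and 25698, 23050 and 26834 in mutants (log2 fold change 0.39, adjusted p = 0.0493, edgeR), and the other 6973, 8119 and 8684 against 10573, 8628 and 9960 (0.32, adjusted p = 0.144). The rapunzel genes near them went both ways, rpz at −0.49, rpz2 at −1.51 and rpz5 at 0.42. rpz and rpz2 overlap each other and a gene on the opposite strand, so their counts are uncertain.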
